A study of Gallus gallus with 2 samples.

Results

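NFKB1, NFKB2, REL, NFKBIA, TNFAIP3, BIRC2, TNFSF15, TNFSF13B, TNFRSF1A and LITAF, chicken genes of NF-kB factors, NF-kB regulators and the TNF family, were followed through one comparison of intestinal intraepithelial lymphocytes, which are mostly T cells lodged in the gut epithelium. The 10 genes were chosen by name, from every non-control probe on the arrays whose gene name, accession or gene identifier is one of theirs, and they are 10 of 8881 genes that could be named. They have 12 probes, with a pair each for REL and LITAF, and 11 probes of 9 genes were bright enough to be tested.

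Total RNA came from the intraepithelial lymphocytes of broiler chickens given direct fed microbials (DFM, live bacteria mixed into feed) and of broiler chickens left as untreated controls, both at an age of 14 days. Each of 2 Agilent chicken arrays compared a DFM RNA and a control RNA in different dyes. DFM RNA carried Cy5 on the array of replicate 1 and Cy3 on the array of replicate 2. By its labels the second array is a biological replicate, but also a dye exchange of array 1. The labels do not state the microbial strains, the sort or gate, or how many birds gave each RNA. The spread that the p-values rest on is therefore that between 2 arrays, pooled mostly over all tested probes, and may be technical.

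NF-kB is a family of transcription factors held in the cytoplasm by inhibitor proteins. Ligands of the TNF family bind receptors whose adaptor proteins recruit ubiquitin ligases and kinases, the inhibitor is destroyed, and the freed NF-kB dimers enter the nucleus and switch on genes of inflammation and survival, among them the genes of their own inhibitors. In the gut, this pathway is known as a route by which epithelial and immune cells respond to microbes and to cytokines.

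Values are log2 ratios of DFM over control on each array, and levels are normalized log2 signals per channel. A level depends on the probe as well as the gene, so levels are compared between groups and not between genes. A probe was called when its adjusted p in limma, computed over all 18242 tested probes, was under 0.05. Each probe's variance came mostly from a prior over all tested probes, with 7.52 degrees of freedom against 1 from its own 2 arrays. Standard errors, intervals and p-values therefore reflect a probe's own agreement between arrays only in part. All ratios are relative to the average probe of an array, which the normalization sets to 0. The 10 spike-in RNAs added at labelling, each taken as the mean of both arrays, had a median log2 ratio of -2.12 on that scale. These means ran from -2.32 to -1.88, but on single arrays the ratios of the spike-ins ran from -5.56 to 1.15. Setting the arrays to that median shifts every probe by 2.12 towards DFM and turns the sign of each negative value below. The median absolute difference between the arrays was 0.187 log2 over all tested probes, and 90% of probes differed by less than 0.499. Because the RNA is of a bulk population, fewer cells of a type and less RNA per cell cannot be told apart.

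Defining T cell genes were present, led by the CD3 subunit gene CD3D and the CD3 zeta gene CD247, while 1 of the 11 T cell markers on the array, PTPRC, had no signal well above background in any channel. The probes of CD8A, CD4, CD28, LCK and ZAP70 were dim, at 67.1 to 122 units of mean spot brightness over local backgrounds of 39.0 to 57.0 units. On replicate 1, CD4 was not well above background in the control channel, nor was ZAP70 in the DFM channel. Over all tested probes, 12.1% were called higher and 10.5% lower, which is the background for each count of called markers in this paragraph. Of the 10 tested T cell markers, 1 was called higher (CD5) and 2 lower (CD3D and IL2RG). The summed linear signal of all 11 was 38110 and 32580 with DFM, against 51070 and 49880 in control. CD3D, called lower (levels 15.05 and 14.81 with DFM, 15.49 and 15.47 in control), alone made up 88.1% to 90.9% of these sums. Without it they were 4140 and 3871 with DFM, against 4959 and 4519 in control. Sums here and below run over all markers of a type on the array, tested or not, so the brightest markers weigh most. Markers are counted as on the array where a probe could be given their name. The macrophage and granulocyte sum below is mostly CTSS, which was not called (levels 14.09 and 14.14 with DFM, 14.35 and 14.35 in control). The erythrocyte sum is mostly HBBA, which was called lower (15.24 and 15.14 with DFM, 15.91 and 16.01 in control). Other cell types were also measurable, and the enterocyte sums below are larger than the T cell sums in every channel. Sums of different probes do not measure shares of cells. The part of other cell types in the results below was not tested. The array's own annotation names some marker probes otherwise, among them PDGFRB for CSF1R and PNLIP for PNLIPRP1. Of 11 exocrine pancreas markers on the array, 9 were tested and 9 were called higher, led by CPA1 and CELA1, with sums of 22160 and 21550 with DFM, against 1296 and 1349 in control, while no channel held a signal well above background for PRSS2 or PRSS3. Of these 9, 4 (CPB1, CEL, CTRL and PNLIPRP1) entered the test through DFM alone, being well above background on both arrays with DFM but not in control, so that a call could hardly be other than higher, and the other 5 were above background in all 4 channels. Of 14 tested enterocyte markers (of 16 on the array; brightest ANPEP and APOA4), 1 was higher and 6 were lower, with sums of 679600 and 536600 with DFM, against 607200 and 729700 in control, and FABP2 and SI had no signal well above background in any channel. Of 5 tested macrophage and granulocyte markers (of 8; brightest CTSS and LYZ), 2 were higher and 0 lower, with sums of 19230 and 19740 with DFM, against 21840 and 21900 in control, and CSF1R, CSF3R and TLR4 had no signal well above background in any channel. Of 4 tested B and plasma cell markers (of 6; brightest CD79B and BLK), 0 were higher and 1 was lower, with sums of 1285 and 1253 with DFM, against 1533 and 1424 in control. Of 3 tested erythrocyte markers (of 4; brightest HBBA and CA2), 1 (HBE1, which entered through DFM alone) was higher and 2 were lower, with sums of 39970 and 37480 with DFM, against 64050 and 68490 in control, and HBZ was not well above background in any channel.

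Among the NF-kB and TNF family genes, the ligand gene TNFSF15 was higher with DFM, the ubiquitin ligase gene BIRC2 was lower, and LITAF was lower by one of its probes. In counts, 1 of 11 tested probes was called higher, against a background of 12.1% of all tested probes, and 2 were called lower, against 10.5%. In either direction 3 of 11 were called, against 22.6% of all tested probes, a share close to that background. The median log2 ratio of the 11 probes was -0.15, with array medians of -0.25 and -0.05, against 0.000872 for all tested probes. The dimmer LITAF probe entered the test through DFM alone, and the median of the other 10 was -0.20. The ratio was negative on both arrays for 7 probes, where 38.2% of all tested probes were, and positive on both for 3, where 37.8% were.

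**Figure D1:**
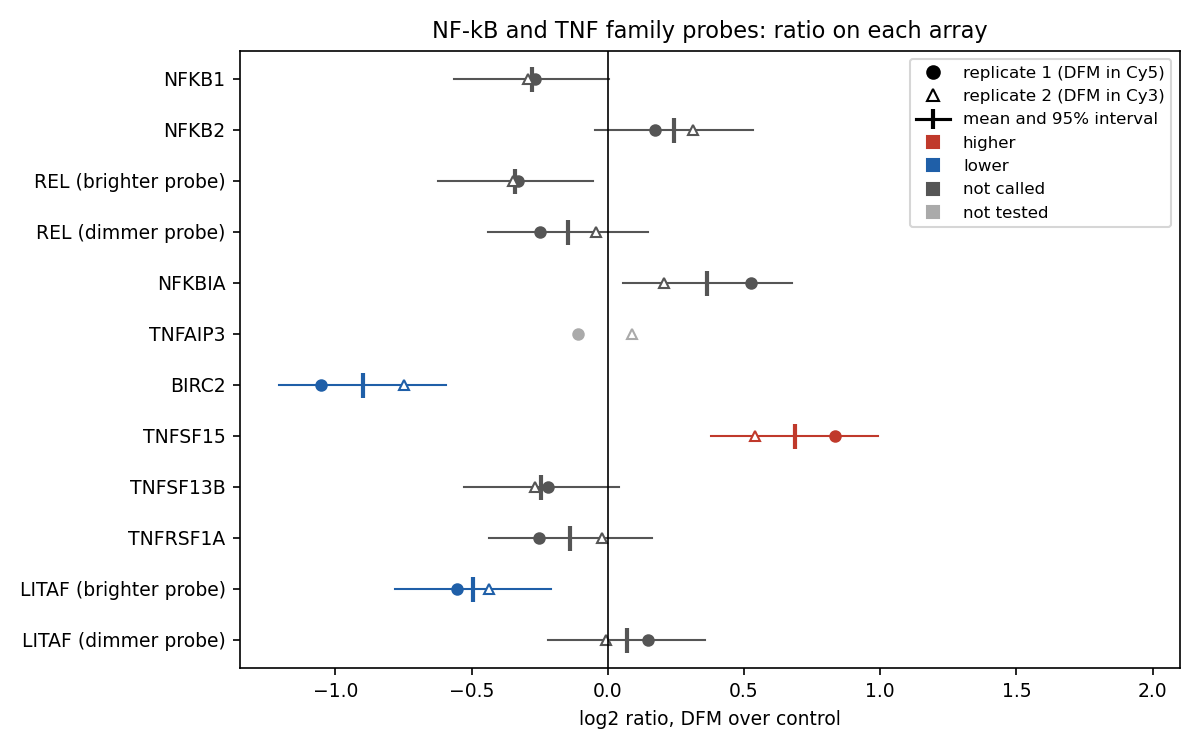
Log2 ratio of DFM over control (horizontal axis, relative to the average probe) for the 12 probes of the 10 genes, as circles for replicate 1, open triangles for replicate 2, and a tick with a line for the mean and limma's 95% interval. BIRC2 and the brighter LITAF probe lie left of 0 on both arrays and were called lower, TNFSF15 lies right of 0 on both and was called higher, and TNFAIP3 has no interval because it was not tested.

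The dimer-forming subunits were measured by 4 probes, and none was called. NFKB1 encodes p105, the precursor of the p50 subunit of the canonical dimer. Its level was 6.91 and 7.09 with DFM (replicates 1 and 2), against 7.18 and 7.38 in control. Both DFM values lay below both control values, by log2 ratios of -0.27 and -0.29, which differed between arrays by 0.025. The mean was -0.28 (95% interval -0.56 to 0.0035, n = 2 arrays, limma adjusted p = 0.140).

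NFKB2 encodes p100, which yields p52, the subunit of the non-canonical pathway. Its level was 8.95 and 8.81 with DFM, against 8.78 and 8.50 in control. Here the order was the other way, with both DFM values above both control values. Its ratios were 0.17 and 0.31, with a mean of 0.24 (95% interval -0.05 to 0.53, limma adjusted p = 0.199).

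REL encodes c-Rel, the subunit known for its role in lymphocyte activation. The brighter REL probe had levels of 8.61 and 8.64 with DFM, against 8.94 and 8.99 in control. The channels of each group nearly coincided, and the groups did not overlap. Its log2 ratios of -0.33 and -0.35 were the closest pair among the 12 probes, differing by 0.015, and their mean was -0.34 (95% interval -0.62 to -0.06). It had an unadjusted p of 0.0244 and an adjusted p of 0.0830 in limma, so it was not called. The dimmer REL probe, matched to another part of the gene 16344 bases away in the galGal2 build, had levels of 6.81 and 6.83 with DFM, against 7.06 and 6.88 in control. Its log2 ratios were -0.25 and -0.05 (mean -0.15, 95% interval -0.44 to 0.15, limma adjusted p = 0.439), so both REL probes had negative values of unlike size.

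NFKBIA and TNFAIP3 encode inhibitors of the pathway that NF-kB itself induces. NFKBIA encodes IkB alpha, which keeps NF-kB dimers in the cytoplasm. Its level was 11.83 and 11.73 with DFM, against 11.31 and 11.52 in control. Both DFM values were above both control values, but the ratio was larger on replicate 1, at 0.53, than on replicate 2, at 0.21, a difference of 0.322 between arrays. The mean was 0.37 (95% interval 0.06 to 0.68), with an unadjusted p of 0.0259 and an adjusted p of 0.0863 in limma, so NFKBIA was not called.

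TNFAIP3 encodes A20, a ubiquitin-editing enzyme that shuts off signalling below TNF receptors. Its probe was not well above background in any of the 4 channels. The mean spot brightness was 66.8 and 65.6 units with DFM over local backgrounds of 53.5 and 40.0 units, against 68.7 and 66.8 units in control over backgrounds of 41.0 and 55.5 units. The log2 ratios of -0.11 and 0.09 have opposite signs, and no difference could be measured at this signal.

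BIRC2, which encodes cIAP1, an inhibitor of apoptosis protein and ubiquitin ligase bound to TNF receptor complexes, had the largest change among the 11 tested probes as reported, though not at an offset of 0 or with the scanner software's ratio, where TNFSF15 was larger in size. Its level was 8.04 and 8.19 with DFM, against 9.09 and 8.94 in control. The groups did not overlap, and both arrays had the same sign. The log2 ratios of -1.05 and -0.75 had a mean of -0.90 (SE 0.13, 95% interval -1.21 to -0.59, limma adjusted p = 0.00275), so BIRC2 was 1.87-fold lower with DFM. In the scanner's mean brightness, the spot read 353 units in the DFM channel of replicate 1 (Cy5) and 213 units in that of replicate 2 (Cy3), against 436 units in the control channel of replicate 1 (Cy3) and 635 units in that of replicate 2 (Cy5). Cy5 read brighter than Cy3 for both groups, and within each dye the DFM spot was the dimmer one. The call held with an offset of 0 in the background correction (limma adjusted p = 0.00916) and with the scanner software's own ratio (0.0415), and was lost with median centring in place of loess (mean -0.94, adjusted p = 1), under which no member was called.

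**Figure D2:**
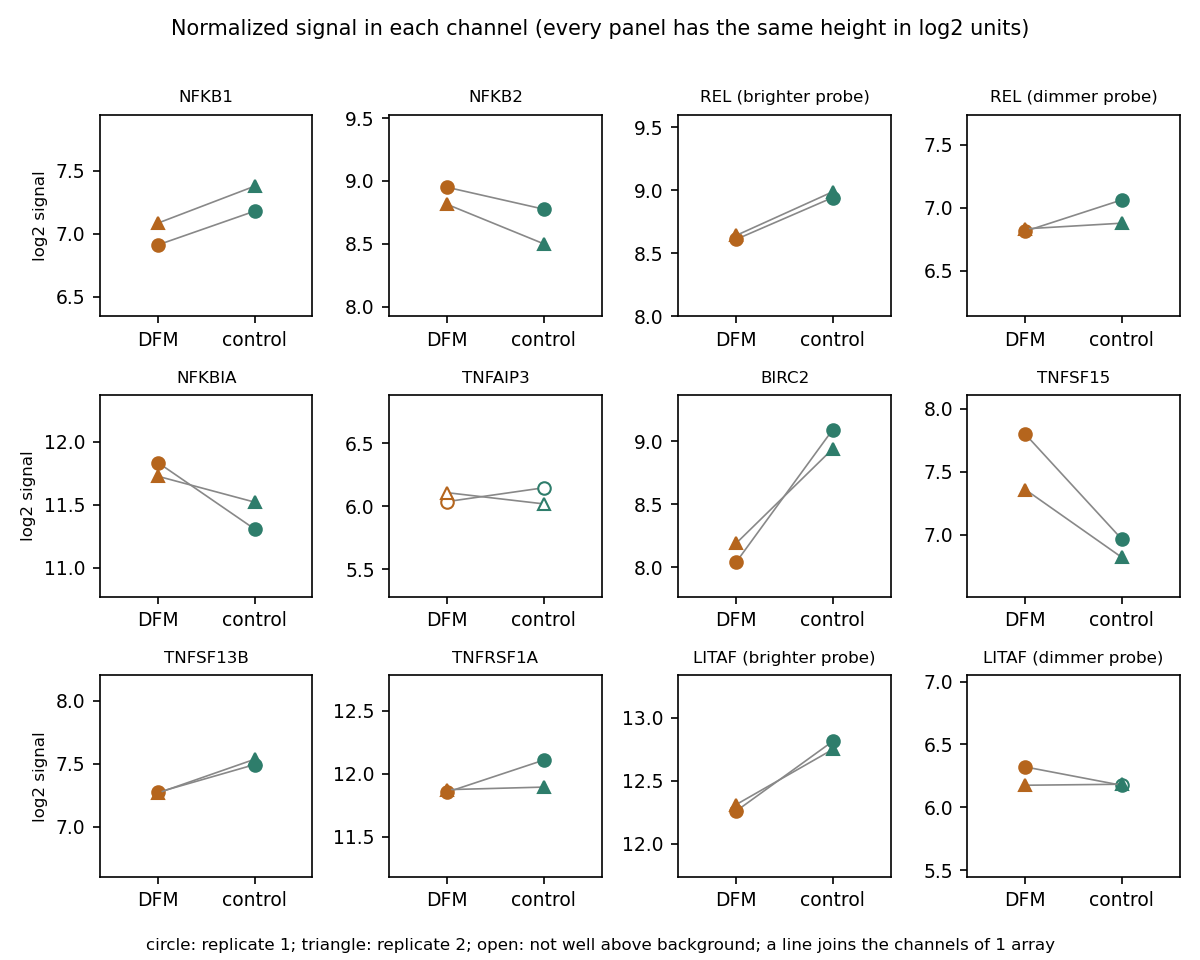
Normalized log2 signal (vertical axis) in the DFM channel (left) and the control channel (right) of both arrays, 1 panel for each of the 12 probes, with circles for replicate 1, triangles for replicate 2, open symbols for channels not well above background and lines joining the channels of 1 array. Every panel has the same height in log2 units, so slopes can be compared: they are steepest upwards for BIRC2 and steepest downwards for TNFSF15. Slopes are opposite on the 2 arrays for TNFAIP3 and for the dimmer LITAF probe, which is nearly flat on replicate 2.

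Of the TNF family ligand genes TNFSF15 and TNFSF13B, TNFSF15 was called. It encodes TL1A, which in mammals co-stimulates T cells through the death receptor TNFRSF25. Its level was 7.80 and 7.36 with DFM, against 6.97 and 6.82 in control. Both DFM values were above both control values, and the DFM channel of replicate 1 stood apart as the highest. The log2 ratios of 0.83 and 0.54 had a mean of 0.69 (SE 0.13, 95% interval 0.38 to 0.99, limma adjusted p = 0.00873), so TNFSF15 was 1.61-fold higher with DFM. The spot was dim: its mean brightness was 277 and 137 units with DFM over backgrounds of 53.0 and 45.0 units, against 102 and 130 units in control over backgrounds of 39.0 and 50.0 units. The size of the ratio depended on the background correction, with a mean of 1.05 at an offset of 0 (limma adjusted p = 0.00773) and 1.20 from the scanner software's ratio (0.0327), and the call was lost with median centring (mean 0.70, adjusted p = 1).

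TNFSF13B encodes BAFF, a survival factor of B cells. Its level was 7.27 and 7.27 with DFM, against 7.49 and 7.54 in control. The groups did not overlap and the arrays differed by 0.047. On the log2 scale the ratios were -0.22 and -0.27, with a mean of -0.24 (95% interval -0.53 to 0.04, limma adjusted p = 0.191), which was not called.

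TNFRSF1A, the death domain receptor of TNF, had levels of 11.86 and 11.88 with DFM, against 12.11 and 11.90 in control. Both DFM values lay below both control values, on replicate 2 by 0.02. Ratios of -0.25 and -0.02 gave a mean of -0.14 (95% interval -0.43 to 0.16, limma adjusted p = 0.475), which was not called.

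LITAF encodes the lipopolysaccharide-induced TNF factor, a protein first described as a regulator of TNF expression. Its brighter probe had levels of 12.26 and 12.31 with DFM, against 12.81 and 12.75 in control. Groups were separated on both arrays. The log2 ratios of -0.55 and -0.44 had a mean of -0.50 (SE 0.13, 95% interval -0.78 to -0.21, limma adjusted p = 0.0244), so by this probe LITAF was 1.41-fold lower with DFM. The size barely moved with the processing but the call did: the mean was -0.50 at an offset of 0 (limma adjusted p = 0.0947), -0.54 from the scanner software's ratio (0.129) and -0.47 with median centring (1). The dimmer LITAF probe had levels of 6.32 and 6.18 with DFM, against 6.18 and 6.18 in control, and the control channel of replicate 1 was not well above background. Its DFM and control values overlapped, and its log2 ratios of 0.15 and -0.01 had a mean of 0.07 (95% interval -0.22 to 0.36, limma adjusted p = 0.726). The dimmer probe was not called, at a brightness of 83.0 and 74.1 units with DFM, against 73.0 and 72.0 units in control, over backgrounds of 46.0 to 52.0 units.

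Both DFM channels lay below both control channels for 7 of 11, where 33.9% of all tested probes did, and above them for 3, where 34.1% did. The 7 were NFKB1, both REL probes, BIRC2, TNFSF13B, TNFRSF1A and the brighter LITAF probe, and the 3 were NFKB2, NFKBIA and TNFSF15. The pairs of probes of REL and LITAF each share a gene and are not independent. Ratios of the dim probes were larger in size from the scanner software's processed signals, with means of -0.65 for NFKB1, -0.46 for TNFSF13B, -0.35 for the dimmer REL probe and 0.50 for the dimmer LITAF probe, and none of these was called.

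The files place each probe on the galGal2 build, whose exon annotation was not used here. The called probes lie at chr1:174537421-174537480 on the minus strand for BIRC2, chr17:8382881-8382940 on the plus strand for TNFSF15 and chr14:3137839-3137898 on the plus strand for the brighter LITAF probe. The NFKB1 probe is the one that does not map as a single block of 60 bases: its position spans 1220 bases, at chr4:61331215-61332434 on the plus strand. The NFKB2 probe lies at chr6:16169574-16169633 on the plus strand, and the NFKBIA probe at chr5:33064291-33064350 on the minus strand. The REL probes lie on the minus strand, the brighter at chr3:367217-367276 and the dimmer at chr3:383621-383680. The TNFAIP3 probe lies at chr3:53504586-53504645 and the TNFSF13B probe at chr1:132953904-132953963, both on the minus strand, and the TNFRSF1A probe at chr1:73481876-73481935 on the plus strand. The dimmer LITAF probe, taken from an expressed sequence tag, has no position in the files.

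The wider pathway was described with 7 lists of other NF-kB and TNF genes, which hold 131 genes. Of these, 72 had a probe that could be named and 50 had a tested probe. Since 31651 of the 42034 probes could not be named, a gene without a named probe may still be on the array. The lists were drawn up with earlier results of these data known, so their counts are no independent evidence. Of the 50 genes, 10 were called higher and 9 lower, with a median log2 ratio of -0.12. The backgrounds of 12.1% higher and 10.5% lower over all tested probes also apply to the count of each list below. Of the 50, 43 were well above background in all 4 channels, and 8 of those were called in each direction. For counts of genes above background in all 4 channels, here and below, the share called among all such probes was not computed.

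Genes known as NF-kB targets held 7 of the 10 higher calls. Of 17 tested target genes, 7 were called higher, 2 lower and 8 were not called, with a median log2 ratio of 0.37. That count and median lean higher by construction, because 4 of the 17 (CSF3, IL17A, IL8L2 and MMP9) entered the test through DFM alone. These 4 were well above background on both arrays with DFM but on at most 1 array in control. Of the 13 targets above background in all 4 channels, 5 were called higher and 2 lower, with a median of 0.04. As reported, the largest ratio was that of CCL20, a chemokine of epithelium that draws lymphocytes and dendritic cells, with levels of 9.85 and 9.89 with DFM, against 7.93 and 8.05 in control (mean log2 ratio 1.88, SE 0.13, limma adjusted p = 2.55e-05). NOS2, the inducible nitric oxide synthase gene, had levels of 8.48 and 8.08 with DFM, against 6.92 and 6.65 in control (log2 ratios 1.56 and 1.44, adjusted p = 1.11e-04 in limma). At an offset of 0 the means were 2.14 for CCL20 and 2.15 for NOS2, and with the scanner software's ratio NOS2, CCL4 and CSF3 (2.27, 2.24 and 2.18) were above CCL20 (2.14). The DFM channels of both genes were above both control channels by more than 1 log2 unit.

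The other higher targets were the chemokine genes CCL4, with log2 ratios of 1.38 and 1.34 on the arrays, and CCL19, with 1.00 and 0.71. CSF3, the granulocyte colony-stimulating factor gene, had 0.89 and 0.81, with the control channel of replicate 1 not well above background. CEBPB, a transcription factor gene of the acute phase response, had 0.65 and 0.84. IL17A, the cytokine gene of Th17 cells, had 0.85 and 0.47, and it too was not well above background in the control channel of replicate 1. PTGS2, the inducible cyclooxygenase gene, was among the 2 lower targets, with levels of 8.43 and 8.26 with DFM, against 9.13 and 8.96 in control (mean -0.70, limma adjusted p = 0.00602). The other was PLAU, the urokinase gene, at -0.58 and -0.51. As reported, the calls among the targets fell in both directions. With the scanner software's ratio, neither PTGS2 nor PLAU was called, nor were CCL19, CEBPB and IL17A among the higher targets.

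Among other subunits and inhibitors, 1 of 2 tested genes was called. NFKBIZ encodes IkB zeta, a nuclear protein that works with p50 homodimers. Its level was 12.35 and 12.46 with DFM, against 11.63 and 11.42 in control, and both DFM values were above both control values. Ratios of 0.72 and 1.04 gave a mean of 0.88 (SE 0.14, limma adjusted p = 0.00322). RELB, the partner of p52, had no signal well above background in any channel, and RELA was not analysed here.

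Of 6 tested IKK and upstream kinase genes, 0 were called by limma, with a median of -0.32. An unadjusted limma p under 0.05 was found for 3 of the 6, against 6744 of all 18242 tested probes. CHUK, the kinase gene IKK alpha of the non-canonical pathway, had levels of 7.51 and 7.55 with DFM, against 7.98 and 7.79 in control. Its groups did not overlap, with log2 ratios of -0.47 and -0.24 (limma adjusted p = 0.0829). RIPK1, the kinase gene of the TNFRSF1A complex, had levels of 8.51 and 9.17 with DFM, against 9.58 and 9.14 in control. Its ratios of -1.07 and 0.03 differed by far more than those of most probes, the groups overlapped, and it was not called (mean -0.52, limma adjusted p = 0.131). IKBKB and IKBKG were not analysed here.

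Among 12 tested adaptors and apoptosis genes, 0 were called higher by limma, 2 were lower and 10 were not called, with a median of -0.15. In either direction, 4 of the 12 had an unadjusted limma p under 0.05, against 6744 of all 18242 tested probes. Those not called include a probe counted as TRAF3IP1, which the array's own annotation names USP40. MYD88, the adaptor gene of Toll-like receptors, had -0.71 and -0.53 (mean -0.62, adjusted p = 0.0109 in limma). CASP8, the caspase gene of death receptors, had -0.58 and -0.35 (mean -0.46, limma adjusted p = 0.0363). BIRC3, TRADD and TRAF2 were not analysed here.

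Of 5 tested feedback and ubiquitin genes, 1 was higher and 2 were lower, with a median of -0.18. Of the 5, CYLD entered the test through control alone and was not called, and the median of the other 4 was -0.46. N4BP1, a gene whose product restrains NF-kB signalling, had the most negative ratio of the 7 lists as reported (at an offset of 0 and with the scanner software's ratio EDA was lower), with levels of 9.35 and 9.55 with DFM, against 10.58 and 10.49 in control. Its groups lay about 1 log2 unit apart (mean -1.08, SE 0.13, limma adjusted p = 0.00111). TAX1BP1, an adaptor gene of A20, had -0.88 and -0.59 (mean -0.73, limma adjusted p = 0.00660) by a probe at chr2:32141350-32141409 on the plus strand. A second probe with that name was too dim to be tested. It lies far off, at chr2:79686622-79686681 on the minus strand, and whether both measure the same gene was not tested. UBE2V1, a cofactor gene for building ubiquitin chains, had 0.61 and 0.45 (mean 0.53, limma adjusted p = 0.0200).

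Among the other TNF family ligands and receptors, 1 gene was higher and 3 were lower. CD40LG, the T cell ligand gene of CD40, had log2 ratios of 0.67 and 0.51 (mean 0.59, limma adjusted p = 0.0135). EDA, the ectodysplasin gene, had -0.62 and -0.41 (mean -0.52, limma adjusted p = 0.0233), with the DFM channel of replicate 2 not well above background. The 4 tested ligands had 1 call in each direction and a median of -0.23, but EDA entered the test through control alone.

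Of 4 tested receptors, 0 were higher and 2 lower, with a median of -0.48. They include a probe counted as TNFRSF10B, which the array's own annotation names RHOBTB2. That probe entered the test through DFM alone and was not called, and the median of the other 3 was -0.57. FAS, the death receptor gene of Fas ligand, had levels of 9.09 and 9.18 with DFM, against 9.92 and 9.68 in control (mean -0.67, SE 0.14, limma adjusted p = 0.0106). TNFRSF18, which encodes GITR, a co-stimulatory receptor of T cells, had levels of 8.02 and 7.95 with DFM, against 8.53 and 8.58 in control (mean -0.57, limma adjusted p = 0.0145). Both DFM values lay below both control values for FAS and TNFRSF18. TNFRSF1B, the other TNF receptor gene, had log2 ratios of -0.65 and -0.11 and was not called (limma adjusted p = 0.112). TNFRSF25, the receptor of TL1A in mammals, and the BAFF receptor genes TNFRSF13B, TNFRSF13C and TNFRSF17 were not analysed here.

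**Figure D3:**
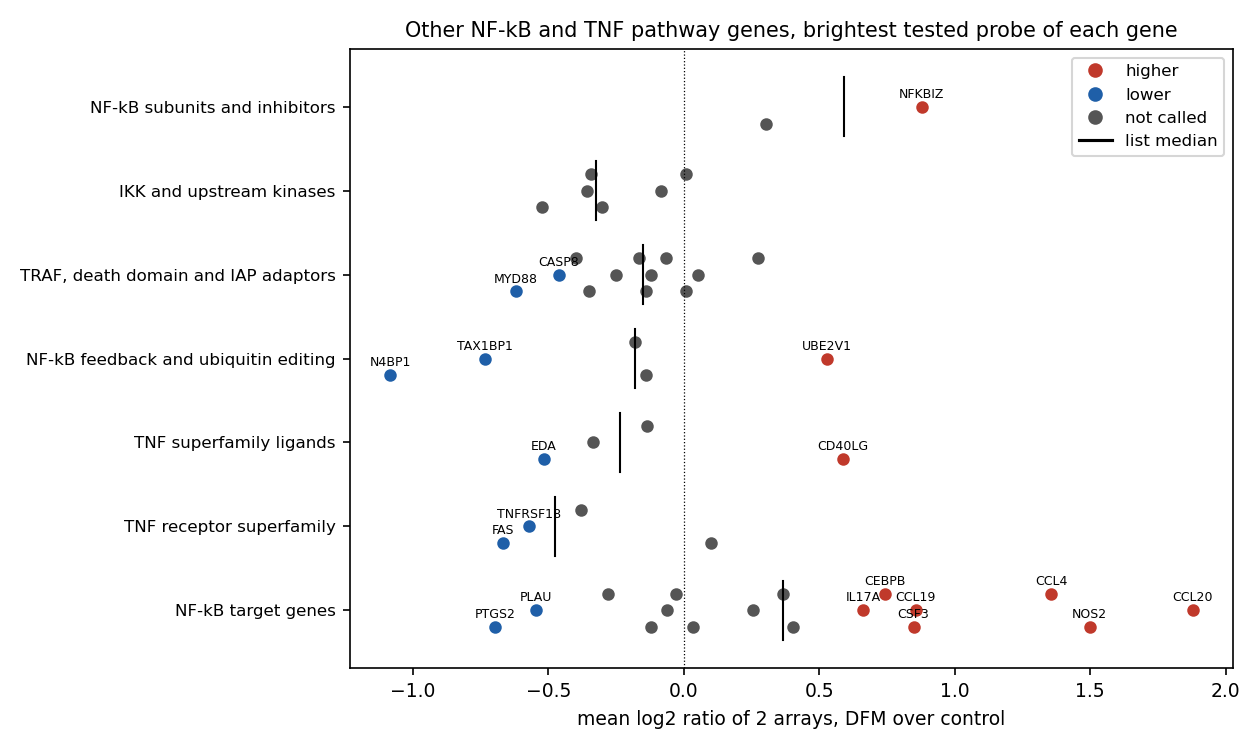
Mean log2 ratio of DFM over control from 2 arrays (horizontal axis, relative to the average probe) for the 50 tested genes of the 7 other lists, 1 row per list, with called genes named and coloured and a black line at each list's median. NF-kB target genes reach from -0.70 for PTGS2 to 1.88 for CCL20, and the called receptor genes lie left of 0.

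The calls and the sizes on the wider pathway depended on how the signals were made. Of the 19 called genes, 18 were also called at an offset of 0, where UBE2V1 was lost, and 19 without the filter on dim probes. With the scanner software's ratio 7 of the 19 were called, namely CCL20, CCL4, NOS2, CSF3, CD40LG, N4BP1 and EDA. Several of the called genes also moved in size. The mean log2 ratio of EDA was -1.30 at an offset of 0 and -1.92 with the scanner software's ratio. In the same order, IL17A was at 1.41 and 2.13, CSF3 at 1.71 and 2.18, CCL4 at 2.12 and 2.24, and NOS2 at 2.15 and 2.27. CD40LG was at 1.06 and 1.26, CASP8 at -0.69 and -0.86 and PLAU at -0.70 and -0.82. Others stayed near their reported means, N4BP1 (-1.08 as reported) at -1.13 and -1.16 and NFKBIZ (0.88 as reported) at 0.90 and 0.88. With median centring 0 of the 50 genes were called by limma, with 3 at an unadjusted p under 0.05, all higher. Over all 18242 tested probes, 295 were higher and 105 lower at that unadjusted p.

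**Figure D4:**
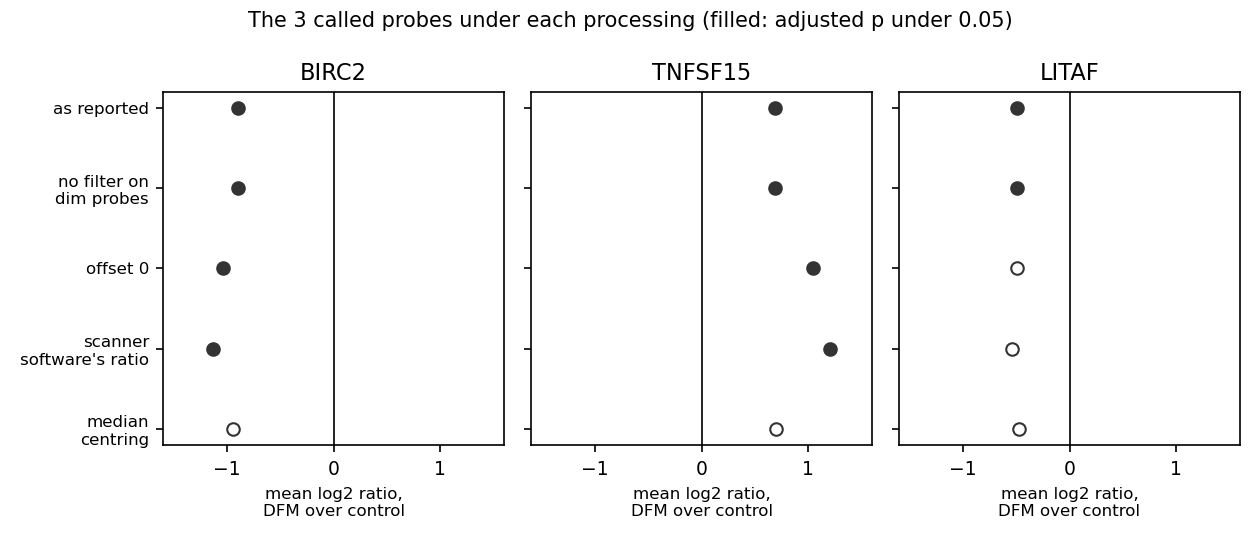
Mean log2 ratio of DFM over control (horizontal axes) for BIRC2, TNFSF15 and the brighter LITAF probe under 5 ways of processing the arrays (rows), with filled points where limma's adjusted p was under 0.05. Directions agree in all 5 rows, TNFSF15 is largest with the scanner software's ratio at 1.20, and no point is filled with median centring.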

How the data were processed

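Each spot's deposited intensity, per the file headers, is its mean brightness and median local background in Cy5 and Cy3, with flags. The authors' deposited series table holds log2 values, which equalled the scanner software's processed DFM over control ratio on both arrays, uncentred, with medians of -0.274 and 0.204. Agilent Feature Extraction is given as 10.7.3.1 in the submitters' processing notes and as 9.5.3.1 in the file headers, which also give the galGal2 build.

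Intensities were background-corrected (normexp, offset 50) and loess-normalized within arrays, control spots at weight 0, in limma 3.58.1 (R 4.3.3; the data.table package, 1.17.8), and the ratio of replicate 2 was turned. Levels are loess and Aquantile channel values. Of 42034 probes, 5 with outlier flags were left out and 18242, well above background on both arrays in at least 1 group, were tested against 0 (lmFit, eBayes, two-sided, Benjamini-Hochberg). In all 4 channels 15792 were above background, and 0 were saturated. The arrays' ratios correlated at Pearson r = 0.82 across probes, which are not replicates. The number of arrays limits precision.

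Names were given to 10383 probes through NCBI RefSeq gene records of assembly GRCg7b (5309 by accession, 3781 by gene identifier, 885 by symbol, 307 by synonym) or, for 101, by the files' own gene name. In the lists, the brightest tested probe stands for a gene. The text names all 10 genes by every probe, called list genes, direct binding partners, and the 2 brightest markers per cell type; those named for near-background channels were chosen after their values were seen. The members and lists were chosen with earlier results of these data known. The script was tested on simulated data. Figures used matplotlib 3.10.9 (Python 3.11.15). Alternatives were an offset of 0, median centring, the scanner software's ratio, no filter on dim probes, each array alone and spike-in scaling. Both arrays lie on 1 slide. No sequences are shown, and 1 list gene and 1 T cell marker are not reported here.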

Additional observations from a re-analysis of the deposited data

How the results depend on the processing

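Directions of the 11 tested probes were the same as reported under an offset of 0, median centring, the scanner software's ratio and no filter on dim probes. Without replicate 1 or replicate 2 the value is that of 1 array, with no test, from -1.05 to -0.75 for BIRC2, 0.54 to 0.83 for TNFSF15 and -0.55 to -0.44 for LITAF; the dimmer LITAF probe took opposite signs. Calls lower among the 11 probes fell to 1 at an offset of 0 and to 1 with the scanner software's ratio, LITAF being the one lost each time. That ratio called 1179 probes higher and 951 lower in all, and 7 and 2 of the 50 other pathway genes. With median centring, 109 probes were called higher and 8 lower, and 295 and 105 had an unadjusted limma p under 0.05. Calls among the 11 probes were 0 and 0 (0 and 0 at an unadjusted p under 0.05). Among the 50 genes they were 0 and 0 (3 and 0 at an unadjusted p under 0.05). The cause of these losses was not tested. Of the calls, 3109 of 4131 at an offset of 0, 117 of 117 with median centring, 1543 of 2130 with the scanner ratio and 3937 of 4394 without the filter were also made, in the same direction, as reported. Set to the spike-in RNAs, a scaling chosen with earlier results of these data known that ignores their spread between arrays, 18223 probes were higher and 3 lower, 11 and 0 of the 11 probes and 50 and 0 of the 50 genes, and log2 ratios reversed to 1.84 for NFKB1, 1.78 and 1.98 for the REL probes, 1.22 for BIRC2, 1.63 for LITAF, 1.88 for TNFSF13B and 1.99 for TNFRSF1A. Both RNAs of a replicate share an array, so the ratio tested is itself the paired comparison and no further replicate block was fitted. Signals near background limit TNFAIP3, TNFSF15, NFKB1, TNFSF13B and the dimmer probes of REL and LITAF. The ratio of mean brightness to local background was 2.2 to 2.7 for the dimmer REL probe and 2.7 to 3.9 for NFKB1. It was 2.8 to 4.4 for TNFSF13B and 2.6 to 5.2 for TNFSF15.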
